A study of Mus musculus with 36 samples.

Results

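The 10 genes described here are Nr3c1, which encodes the glucocorticoid receptor, and 9 genes widely used as readouts of that receptor: Fkbp5, Tsc22d3, Errfi1, Pdk4, Sgk1, Dusp1, Zbtb16, Mt1 and Mt2. They were chosen by symbol, and all 10 were found among the 52505 genes of the expression table. The table holds FPKM, in which fragments are scaled to the length of the gene and to the depth of the library, so levels can be set side by side between genes. RNA came from 3T3-L1, a mouse embryonic fibroblast line of preadipocytes that becomes fat when given a hormone cocktail. The 4 groups of n = 3 libraries were wild type (WT) at day 0, WT at day 2, Zfp217 knockout (KO) at day 0 and KO at day 2. The treatment field lists the synthetic glucocorticoid dexamethasone at 1 mM, the phosphodiesterase inhibitor isobutyl-methylxanthine at 0.5 mM, insulin at 10 mg/mL and indometacin at 100 µmol/L, and it reads the same for all 4 groups, with the time point as the only difference between the days. Day 0 is taken here as the time before the cocktail acts. The labels name no separate cultures, so the p-values measure the spread between these libraries, which may be technical. They do not say how the knockout was made or whether the KO cells are 1 clone.

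Glucocorticoids cross the cell membrane and bind the receptor, which waits in the cytoplasm in a complex with heat shock protein chaperones. The bound receptor moves to the nucleus, pairs up on palindromic DNA elements and raises transcription of nearby genes, and it also lowers many inflammatory genes. In 3T3-L1 cells the hormone acts together with cyclic AMP, whose breakdown isobutyl-methylxanthine blocks, to start the change into fat cells. Because both agents and insulin arrive together in the cocktail, a change over the days belongs to the whole cocktail and to differentiation, and the part of each cannot be told apart.

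The label check came first. Zfp217, a zinc finger transcription regulator, had 21.7, 21.9 and 22.3 FPKM in WT day 0, 14.6, 15.3 and 15.3 in WT day 2, 25.2, 25.8 and 26.9 in KO day 0, and 21.7, 23.4 and 22.7 in KO day 2. The message was thus not lower but higher in the libraries labelled KO, 1.18-fold at day 0 and 1.5-fold at day 2 (adjusted p = 7.58e-05 and 2.41e-08, limma). A level for the whole gene cannot show a frameshift or a lost exon. WT and KO below name the labels, and each direction is one between libraries as labelled. Recovered read totals were 18073258 to 23114994 per library. Of 8 preadipocyte markers, 8 fell over the days in WT, where 46.5% of all genes were called lower, and 7 in KO, where 38.8% were. One of them, Cd34, reached the minimum only through WT day 0 and could only fall there. Their summed level was 5656 to 5857 FPKM in WT day 0, 722 to 735 in WT day 2, 19056 to 19652 in KO day 0 and 4451 to 4649 in KO day 2. Most of the day 0 sums came from Col1a1 (mean 3536 in WT, 9746 in KO) and Col3a1 (1082 and 7789). The markers did not all differ alike at day 0. In KO 6 were higher, beside 38.3% of all genes, Cd34 was lower, also set by that minimum, and Thy1 was not called (adjusted p = 0.0728, limma). The sum of 6 adipocyte markers reached 4984 to 5176 FPKM in WT day 2 and 58.0 to 61.6 in KO day 2, with day 0 values of 1.77 to 5.64, and Lep was listed at 0 throughout. Markers of 4 other lineages were low: the sums were at most 7.31 for 5 blood cell markers, 0.575 for 4 endothelial, 0.125 for 4 epithelial and 1.33 for 4 muscle markers, with Epcam, Myod1 and Myog at 0 in every library. The blood cell sum was mostly Cd68, which rose over the days from 2.04 to 5.98 FPKM in WT and from 1.69 to 6.09 in KO (adjusted p = 5.82e-06 and 2.54e-06, limma). A sum of 4 cell division genes was 392 to 401 FPKM in WT day 0, 303 to 316 in WT day 2, 18.3 to 19.1 in KO day 0 and 134 to 137 in KO day 2. Mitochondrial ribosomal RNA summed to 746 to 771 FPKM in KO day 0 and to 541 in WT day 0 replicate 3, against 12 to 36.4 in the other libraries. These differences in cell state and RNA makeup go with every comparison below, and their part in the results was not tested. In bulk RNA, fewer cells of a type and less RNA per cell cannot be told apart.

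Promoter windows of 8 of the 10 genes were used, 16 windows in all, from the RefSeq-derived table of GRCm38.p6. No window of Nr3c1 or Zbtb16 was used, whether or not the RefSeq-derived source holds one, and both genes are named only. In the 250 bases before each start, 5 motifs were searched on both strands. They were the glucocorticoid palindrome (AGAACA, any 3 bases, TGTTCT), its hexamer AGAACA, the cyclic AMP response element TGACGTCA, its pentamer TGACG and the TATA box TATAAA. The palindrome contains the hexamer and TGACGTCA contains the pentamer. Windows of 3 genes are printed because they hold the rare matches, 5′ to 3′ on the gene's own strand, with matches to the motifs in capitals.
Sgk1, chr10:21993640-21993889, plus strand: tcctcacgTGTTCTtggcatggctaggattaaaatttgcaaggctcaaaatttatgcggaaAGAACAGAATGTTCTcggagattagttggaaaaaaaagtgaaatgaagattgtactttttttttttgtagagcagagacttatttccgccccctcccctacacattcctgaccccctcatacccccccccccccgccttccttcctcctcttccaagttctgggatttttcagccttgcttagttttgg
Errfi1, chr4:150854820-150855069, plus strand: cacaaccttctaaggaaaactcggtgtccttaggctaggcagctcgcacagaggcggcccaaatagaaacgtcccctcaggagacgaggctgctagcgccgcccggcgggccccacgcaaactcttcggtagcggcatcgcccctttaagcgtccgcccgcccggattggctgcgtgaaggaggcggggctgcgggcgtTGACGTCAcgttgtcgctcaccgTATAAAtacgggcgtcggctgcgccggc
Dusp1, chr17:26508473-26508722, minus strand: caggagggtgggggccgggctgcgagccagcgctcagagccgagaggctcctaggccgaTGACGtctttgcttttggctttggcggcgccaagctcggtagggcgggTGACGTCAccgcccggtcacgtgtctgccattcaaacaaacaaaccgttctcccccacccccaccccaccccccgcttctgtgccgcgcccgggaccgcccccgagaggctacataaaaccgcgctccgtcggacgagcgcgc

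The Sgk1 window stands before 1 of 6 annotated starts of the gene and holds the full palindrome from -189 to -175, counted back from the start, plus a separate hexamer from -242 to -237. Only 3 of all 32851 windows of the mouse table hold the palindrome (0.00913%), the others belonging to Acnat2 and Gm35041. The hexamer alone was in 16.1% of all windows. The Errfi1 window holds TGACGTCA from -51 to -44 and a TATA box from -28 to -23, and the Dusp1 window holds TGACGTCA from -143 to -136 and a further pentamer from -191 to -187. TGACGTCA was in 508 of all windows (1.55%), TGACG in 17.8% and TATAAA in 12.4%. A match describes letters only. Receptor-bound elements often lie far from the start, outside these windows.

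The receptor gene itself differed most before the cocktail. Nr3c1 (ENSMUSG00000024431, chromosome 18, 39410545 to 39519421 of GRCm38.p6) was at 35.6, 36.2 and 37.2 FPKM in WT day 0, 41.9, 41.2 and 41.4 in WT day 2, 68.8, 68.6 and 68.5 in KO day 0, and 49.4, 46.7 and 45.7 in KO day 2. The KO day 0 libraries were the highest, the WT day 0 libraries the lowest, and no groups overlapped. At day 0 the KO mean was 1.89-fold the WT mean (log2 difference 0.90, SE 0.03, adjusted p = 4.01e-11, limma), and at day 2 it was 1.14-fold (log2 difference 0.18, SE 0.03, adjusted p = 8.48e-05). Over the days the message rose in WT by 0.19 (SE 0.03, adjusted p = 7.74e-05) and fell by 0.53 in KO (SE 0.03, adjusted p = 9.41e-09) on the log2 scale. The difference between these changes, KO minus WT, was -0.71 (SE 0.04, adjusted p = 1.36e-08). Here and below, log2 values are differences of log2(FPKM + 1), which understate the change of low genes, and fold values are ratios of mean FPKM.

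Fkbp5 (ENSMUSG00000024222, chromosome 17, 28398753 to 28486149) encodes FKBP51, a co-chaperone that binds the receptor complex and lowers its affinity for hormone, so that its induction forms a feedback loop. It was at 35.6, 36.8 and 35.7 FPKM in WT day 0, 778, 779 and 771 in WT day 2, 7.69, 6.24 and 6.36 in KO day 0, and 452, 438 and 447 in KO day 2. Both genotypes rose far above their own day 0, and the KO libraries lay below the WT libraries at each day with no overlap. The rise was 21.5-fold in WT (log2 4.39, SE 0.05, adjusted p = 5.93e-15) and 65.9-fold in KO (log2 5.85, SE 0.05, adjusted p = 2.25e-15). From the highest rise down it ranked 51 of 12961 genes in WT and 6 in KO. The larger ratio in KO goes with its lower start: KO was 5.32-fold lower at day 0 (log2 -2.26, SE 0.05, adjusted p = 3.19e-12) and 1.74-fold lower at day 2 (log2 -0.80, SE 0.05, adjusted p = 3.92e-08). The log2 changes differed by 1.46 (SE 0.08, adjusted p = 6.24e-09), while the absolute end level was lower in KO.

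Tsc22d3 (ENSMUSG00000031431, chromosome X, 140539528 to 140600522) encodes GILZ, the glucocorticoid-induced leucine zipper protein, which mediates anti-inflammatory actions of the hormone. Its values were 26.3, 26.0 and 25.4 FPKM in WT day 0, 115, 112 and 115 in WT day 2, 29.4, 28.3 and 30.4 in KO day 0, and 650.3, 622 and 638 in KO day 2. The day 0 groups were close, and the KO day 2 libraries stood above all others. The rise was 4.40-fold in WT (log2 2.09, SE 0.03, adjusted p = 1.42e-14) and 21.7-fold in KO (log2 4.39, SE 0.03, adjusted p = 3.6e-16), a difference of changes of 2.30 (SE 0.04, adjusted p = 5.89e-13). KO against WT was 0.18 at day 0 (adjusted p = 0.000122) and 2.47 at day 2 (adjusted p = 5.85e-15) on the log2 scale. Fkbp5 and Tsc22d3, both common markers of receptor activity, thus differed between genotypes in opposite directions at day 2.

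Zbtb16 (ENSMUSG00000066687, chromosome 9, 48651797 to 48836225) encodes PLZF, a zinc finger transcription regulator that is nearly silent without hormone in many cell types. It was at 0, 0.0128 and 0 FPKM in WT day 0, 12.6, 13.7 and 13.4 in WT day 2, 0.0145, 0 and 0 in KO day 0, and 0.832, 0.882 and 0.659 in KO day 2. Each day 0 group held 1 read over its 3 libraries, and the libraries of both overlapped. By day 2 the WT libraries held 3235 reads and the KO libraries 187. The ratio of depth-scaled reads, day 2 to day 0, was 3193 in WT (95% exact interval 573 to 126145) and 183 in KO (32.4 to 7256). At day 2 the KO level was 16.8-fold lower than the WT level, a reads ratio of 0.0596 (0.0512 to 0.0691). These intervals cover counting error only. The gene reached the minimum of 1 FPKM only through WT day 2, with a mean of 0.267 FPKM over the other 9 libraries. Its rise in WT, the lower KO level at day 2 and the sign of the difference of changes (-3.0 on the log2 scale) were therefore fixed by the filter, and they are given as levels, with no test. The mean over the day 0 libraries was 0.00455 FPKM, and the gene reached the minimum only through day 2. Its rise in KO was thus favoured by the filter.

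**Figure D1:**
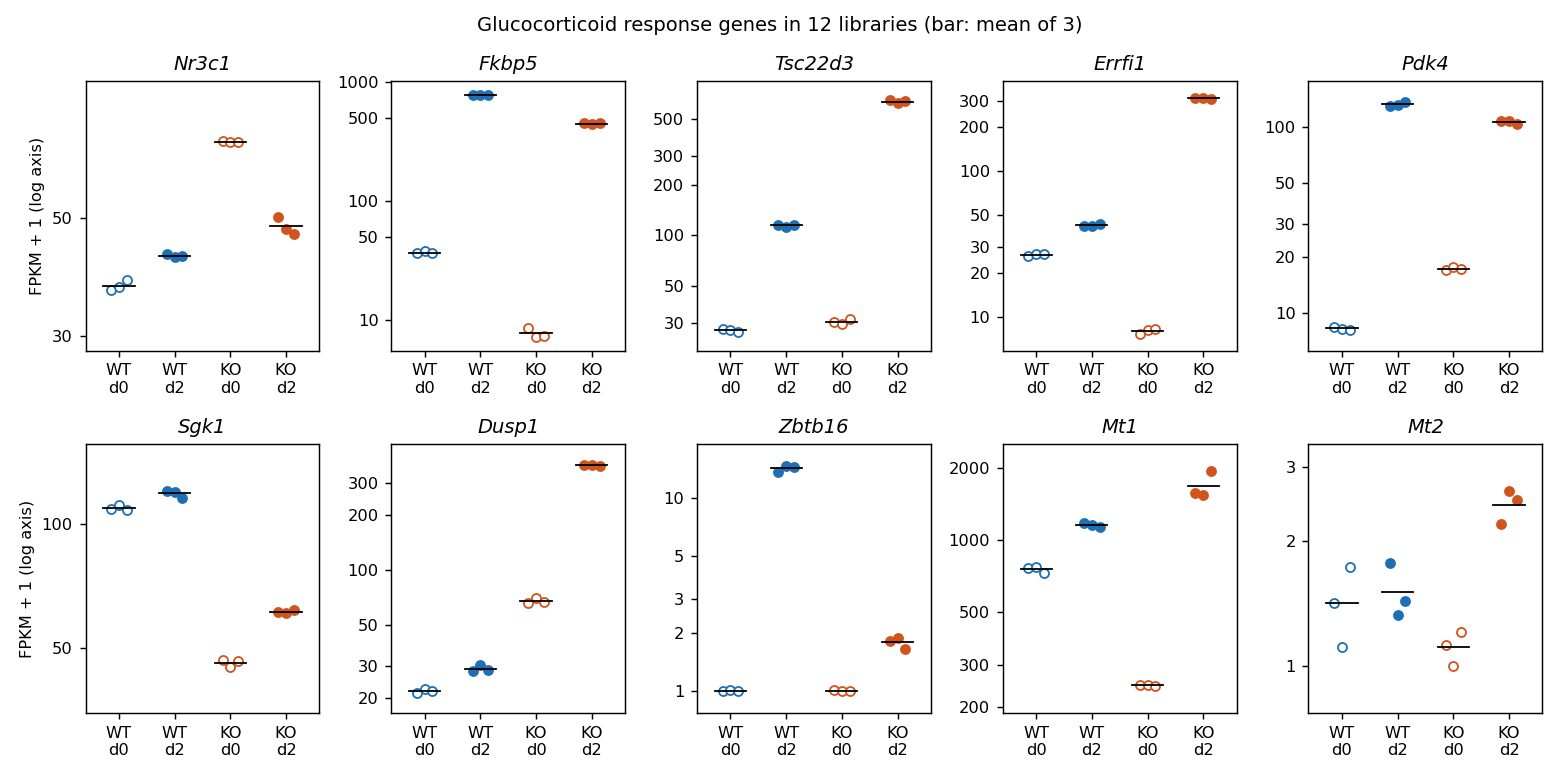
FPKM + 1 on a log axis for the 10 genes in each of the 12 libraries, with WT in blue, KO in orange, open circles for day 0 (d0), filled circles for day 2 (d2) and a bar at the mean of 3. Fkbp5 and Zbtb16 end highest in WT day 2, while Tsc22d3, Errfi1 and Dusp1 end highest in KO day 2, and Mt2 stays below 2 FPKM in every library.

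Errfi1 and Dusp1 both encode brakes on growth factor signalling, and both rose mainly in KO. Errfi1 (ENSMUSG00000028967, chromosome 4, 150853796 to 150868889) encodes MIG6, an inhibitor of the EGF receptor kinase. Its levels were 25, 26.1 and 25.9 FPKM in WT day 0, 40.7, 41.0 and 42.6 in WT day 2, 6.67, 7.22 and 7.34 in KO day 0, and 312, 315 and 309 in KO day 2. The KO libraries were thus the lowest at day 0 and the highest at day 2. The genotype difference turned from 3.63-fold lower (log2 -1.72, SE 0.03, adjusted p = 5.56e-13) to 7.52-fold higher (log2 2.88, SE 0.03, adjusted p = 6.26e-15). The rise was 1.62-fold in WT (log2 0.67, SE 0.03, adjusted p = 2.17e-09) and 44.1-fold in KO (log2 5.28, SE 0.03, adjusted p = 3.6e-16). The difference of the changes, 4.61 (SE 0.05, adjusted p = 1.79e-14), ranked 9 from the top of 12961 genes.

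Dusp1 (ENSMUSG00000024190, chromosome 17, 26505591 to 26508472) encodes MKP-1, a phosphatase that switches off MAP kinases. It was at 20.5, 21.5 and 21.0 FPKM in WT day 0, 27.1, 29.2 and 27.5 in WT day 2, 65.2, 69.1 and 65.9 in KO day 0, and 376, 374 and 369.9 in KO day 2. Every KO library was above every WT library at both days. KO was 3.18-fold higher at day 0 (log2 1.62, SE 0.03, adjusted p = 5.8e-13) and 13.4-fold higher at day 2 (log2 3.69, SE 0.03, adjusted p = 7.94e-16). Over the days the level rose 1.33-fold in WT (log2 0.39, adjusted p = 2.17e-07) and 5.59-fold in KO (log2 2.47, adjusted p = 2.7e-14), and the changes differed by 2.07 (SE 0.05, adjusted p = 3.04e-12). Dusp1 and Errfi1 are the genes with TGACGTCA in the windows printed above, and Dusp1 is also a known target of cyclic AMP signalling. Any link between the motif and these changes was not tested.

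Sgk1, with the full palindrome in a printed window, moved least over the days of the 8 tested readout genes in both genotypes. Sgk1 (ENSMUSG00000019970, chromosome 10, 21882184 to 21999903) encodes a kinase that regulates ion channels and was named for its induction by serum and glucocorticoids. It was at 108, 110.2 and 107 FPKM in WT day 0, 119.6, 119 and 115 in WT day 2, 45.7, 44.1 and 45.5 in KO day 0, and 60.1, 59.8 and 60.7 in KO day 2. Genotype separated these libraries more than day did, with KO lower at both days. The rise was 1.09-fold in WT (log2 0.12, SE 0.02, adjusted p = 0.000554), which quantile normalization reduces to 0.042 with adjusted p = 0.17, and 1.34-fold in KO (log2 0.41, SE 0.02, adjusted p = 1.7e-08). KO was 2.40-fold lower at day 0 (log2 -1.25, adjusted p = 4.61e-13) and 1.96-fold lower at day 2 (log2 -0.96, adjusted p = 3.47e-12). The changes differed by 0.29 (SE 0.03, adjusted p = 9.29e-06). The table gives 1 value for the whole gene, so a shift between the 6 annotated starts would not show.

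Pdk4 (ENSMUSG00000019577, chromosome 6, 5483351 to 5496278) encodes pyruvate dehydrogenase kinase 4, which keeps pyruvate from being burnt in mitochondria. Its values were 7.37, 7.19 and 7.10 FPKM in WT day 0, 129, 130 and 135 in WT day 2, 16.0, 16.6 and 16.2 in KO day 0, and 107, 107 and 103 in KO day 2. KO started above WT and ended below it, with no overlap between neighbouring groups. The rise was 18.2-fold in WT (log2 4.01, SE 0.03, adjusted p = 5.81e-17) and 6.51-fold in KO (log2 2.63, SE 0.03, adjusted p = 5.05e-15), a difference of changes of -1.38 (SE 0.04, adjusted p = 2.12e-11). KO against WT went from 2.25-fold higher (log2 1.07, adjusted p = 4.83e-12) to 1.24-fold lower (log2 -0.31, adjusted p = 4.72e-07). Pdk4 lies on chromosome 6, where the median KO against WT difference of 597 genes departed from the all-gene median by -0.34 (day 0) and -0.31 (day 2).

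The metallothioneins are small proteins that bind zinc and copper, and their genes answer to metals as well as to glucocorticoids. Mt1 (ENSMUSG00000031765, chromosome 8, 94178883 to 94180327) was the most abundant of the 10 genes, at 759, 766 and 726 FPKM in WT day 0, 1171, 1146 and 1123 in WT day 2, 247, 246 and 244 in KO day 0, and 1572, 1534 and 1932 in KO day 2. KO was lowest at day 0 and highest at day 2, and the KO day 2 group had the widest spread, set by replicate 3. KO was 3.05-fold lower at day 0 (log2 -1.61, SE 0.07, adjusted p = 4.57e-10) and 1.46-fold higher at day 2 (log2 0.54, SE 0.07, adjusted p = 1.15e-05), and 0.44 without KO day 2 replicate 3. The rise was 1.53-fold in WT (log2 0.61, adjusted p = 3.93e-06) and 6.83-fold in KO (log2 2.76, adjusted p = 5.71e-12), a difference of changes of 2.15 (SE 0.10, adjusted p = 1.37e-09). On chromosome 8 the median KO against WT difference of 674 genes departed from the all-gene median by 0.42 (day 0) and 0.40 (day 2). Apart from chromosomes 6 and 8, the chromosomes of the 10 genes departed by -0.11 (chromosome 4) to 0.14 (chromosome 9) at day 0. At day 2 they departed by -0.12 (chromosome 4) to 0.24 (chromosome X). Mt1 at day 0 differed in the direction opposite to its chromosome, as did Pdk4, and any part of the chromosome in these values was not tested.

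Mt2 (ENSMUSG00000031762, chromosome 8, 94172618 to 94173567) lies beside Mt1 and is usually expressed together with it, but here it was almost unread. It was at 0.413, 0.108 and 0.732 FPKM in WT day 0, 0.769, 0.326 and 0.432 in WT day 2, 0.123, 0 and 0.210 in KO day 0, and 1.19, 1.63 and 1.5 in KO day 2. Each value rests on 0 to 14 reads, the mean over all libraries was under the minimum of 1 FPKM, and only KO day 2 stood clear of the group next to it. Mt2 came to between 0 and 0.106% of the Mt1 FPKM of the same library. Since 1 library is at 0, the planned ratio of Mt1 to Mt2 is given in this inverted form. The exact permutation p for this percentage, 2-sided, was 0.7 and 0.1 for KO against WT at days 0 and 2, 0.7 for WT over the days and 0.3 for KO over the days, where 0.1 is the smallest that 3 libraries against 3 can give. For the FPKM of Mt2 the same 4 values were 0.3, 0.1, 0.7 and 0.1. Summed over 3 libraries, Mt2 had 12 reads in WT day 0, 15 in WT day 2, 3 in KO day 0 and 40 in KO day 2. The depth-scaled ratio of day 2 to day 0 was 1.23 in WT (95% exact interval 0.539 to 2.89, counting error only) and 13.0 in KO (4.15 to 65.8). KO to WT was 0.26 at day 0 (0.0472 to 0.965) and 2.75 at day 2 (1.49 to 5.36). The coding sequences of Mt1 and Mt2 are alike, and whether reads of one were counted on the other or discarded was not tested.

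**Figure D2:**
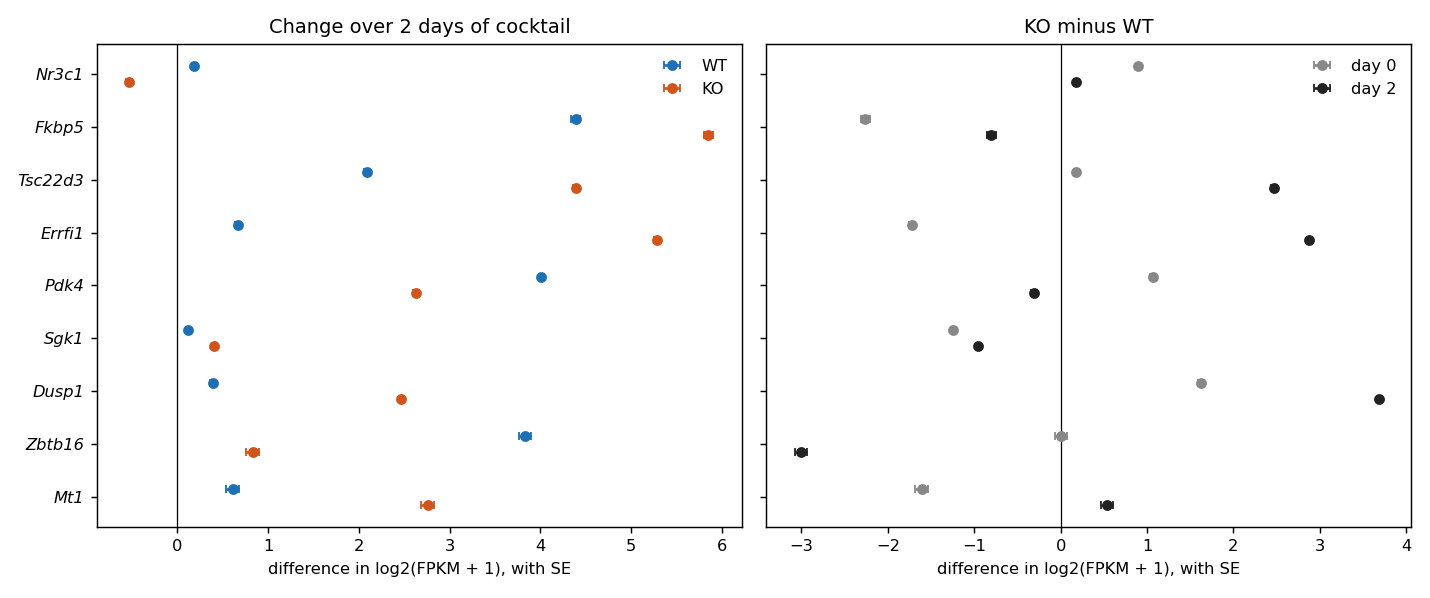
Differences in log2(FPKM + 1) with their SE for the 9 genes tested, on the left day 2 minus day 0 in WT and KO, on the right KO minus WT at days 0 and 2. The left panel shows Errfi1, Tsc22d3, Dusp1 and Mt1 rising more in KO and Pdk4 and Zbtb16 rising more in WT; the right panel shows Errfi1 and Mt1 changing sign from below to above 0 and Pdk4 the other way.

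Counted over the days, all 9 tested genes were higher at day 2 in WT, 4 of them at least 2-fold, where 34.2% of the 12961 genes tested were called higher and 9.28% higher by at least 2-fold. In the same comparison 46.5% of all genes were called lower and 15.1% lower by at least 2-fold. In KO, 8 were higher and Nr3c1 was lower, with 6 higher by at least 2-fold, against 33.9% and 5.46% of all genes higher and 38.8% and 6.99% lower. The median change of the 9 was 0.67 in WT and 2.63 in KO, beside all-gene medians of -0.11 and -0.03. The genes were listed as targets of a hormone in the cocktail and with earlier results of these data known, so these counts describe the list and are not independent evidence of its direction. They include Zbtb16, whose rise in WT the filter fixed. Zbtb16 also reached the minimum only through day 2, so its rise in KO, counted here too, was favoured by the filter.

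Between genotypes the genes split. At day 0, 4 were higher in KO and 4 lower, with 2 and 4 of them at least 2-fold, against 38.3% of all genes higher, 44.2% lower, 10.4% higher by 2-fold and 11.9% lower by 2-fold. At day 2, 5 were higher and 4 lower, with 3 and 1 at least 2-fold, against 40.8%, 40.6%, 12.9% and 11.5% of all genes in the same order. The counts without a fold minimum are near the background at both days and are no result about the list. For the difference of changes, 6 were above 0 and 3 below, with 5 and 2 at least 2-fold, against 40.8%, 33.0%, 12.8% and 8.71%. Zbtb16, with directions fixed by the filter, is among those lower at day 2 and below 0 here. When the 4 groups of each of the 10 genes were put in order, 27 of 30 neighbouring pairs did not overlap in their libraries. The 3 that did were the day 0 groups for Zbtb16, and KO day 0 with WT day 0 and WT day 0 with WT day 2 for Mt2. The same count was not made over all genes, so it is no result about the list.

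Genes that handle the hormone or share its signal differed strongly. Hsd11b1, the enzyme that regenerates active glucocorticoid inside cells, was at 0.432 ± 0.085 FPKM in WT day 0, 59.7 ± 1.87 in WT day 2, 3.76 ± 0.647 in KO day 0 and 7.01 ± 0.236 in KO day 2 (SD, n = 3). Its log2 change was 5.41 in WT and 0.76 in KO, and the changes differed by -4.65 (SE 0.12, adjusted p = 1.11e-11). H6pd, which supplies that enzyme with its cofactor, rose from 14.7 ± 1.00 to 40.5 ± 0.841 in WT and fell from 27.4 ± 0.229 to 14.5 ± 0.343 in KO (difference of changes -2.28, adjusted p = 1.17e-11). Nr3c2, the mineralocorticoid receptor, which also binds glucocorticoids, was at 0.964 ± 0.174 in WT day 0 and 7.90 ± 1.08 in KO day 0 (log2 2.18, adjusted p = 1.93e-09), and at 1.23 ± 0.178 and 4.05 ± 0.470 at day 2 (log2 1.18, adjusted p = 6.16e-07). Abcb1b, a drug efflux pump that carries dexamethasone, fell from 19.2 ± 0.662 to 0.779 ± 0.149 in WT (log2 -3.51, adjusted p = 6.03e-13), and was at 7 ± 0.592 and 6.29 ± 0.403 in KO (adjusted p = 0.13). Of the 7 genes of this list 5 were tested. In WT 2 were higher at day 2 and 2 lower, beside 34.2% and 46.5% of all genes, and in KO 1 was higher and 3 lower, beside 33.9% and 38.8%. Against WT, KO had 4 higher and 1 lower at day 0, beside 38.3% and 44.2% of all genes, and 3 higher and 2 lower at day 2, beside 40.8% and 40.6%. One of those higher, Abcb1a, reached the minimum only through KO and could only be higher there. Abcb1a also reached the minimum only through day 0, so its fall over the days, counted in both genotypes, was favoured by the filter. Nothing is read from counts over 5 genes. Serpina6, the steroid carrier of blood, was listed at 0 throughout.

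Receptor chaperones and co-chaperones, listed with earlier results of these data known, were mostly lower in KO. At day 0, 9 of 11 were lower and 1 higher (median -0.62). At day 2, 8 of 11 were lower and 2 higher (median -0.64). Of all genes 44.2% were lower at day 0 and 40.6% at day 2, with medians of -0.06 and 0.0. Hsp90ab1, the constitutive HSP90 gene, was at 4867 ± 41.0 FPKM in WT and 2204 ± 19.0 in KO at day 0 (log2 -1.14, adjusted p = 2.49e-12). Fkbp4, whose product FKBP52 competes with FKBP51 on the receptor complex, was at 206 ± 4.50 in WT and 72.2 ± 1.63 in KO at day 0 and at 209 ± 4.33 and 61.9 ± 3.91 at day 2 (log2 -1.5 and -1.74, adjusted p = 7.18e-12 and 1.58e-12). Stip1 and Ptges3, co-chaperones of the same complex, differed by -1.10 and -1.08 in log2 at day 0. Hsp90aa1 was the gene of this list not called at either day, at 314 ± 495 in WT day 0, a spread set by replicate 3 of that group. Among 11 receptor coregulators 3 were higher and 7 lower in KO at day 0 (median -0.23), beside 38.3% and 44.2% of all genes, and 4 higher and 6 lower at day 2 (median -0.12), beside 40.8% and 40.6%. Over the days 6 rose and 3 fell in each genotype (medians 0.08 in WT and 0.12 in KO), beside 34.2% and 46.5% of all genes in WT and 33.9% and 38.8% in KO. Ncoa1, a coactivator of steroid receptors, rose from 10.9 ± 0.318 to 58.4 ± 2.69 in WT (log2 2.32, adjusted p = 1.43e-13) and was at 11.7 ± 0.334 and 12 ± 0.419 in KO (adjusted p = 0.494). Nrip1, a corepressor important in fat cells, rose in both, from 11.7 ± 0.375 to 63.1 ± 1.02 in WT and from 7.93 ± 0.432 to 32.6 ± 0.993 in KO (log2 2.33 and 1.91).

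**Figure D3:**
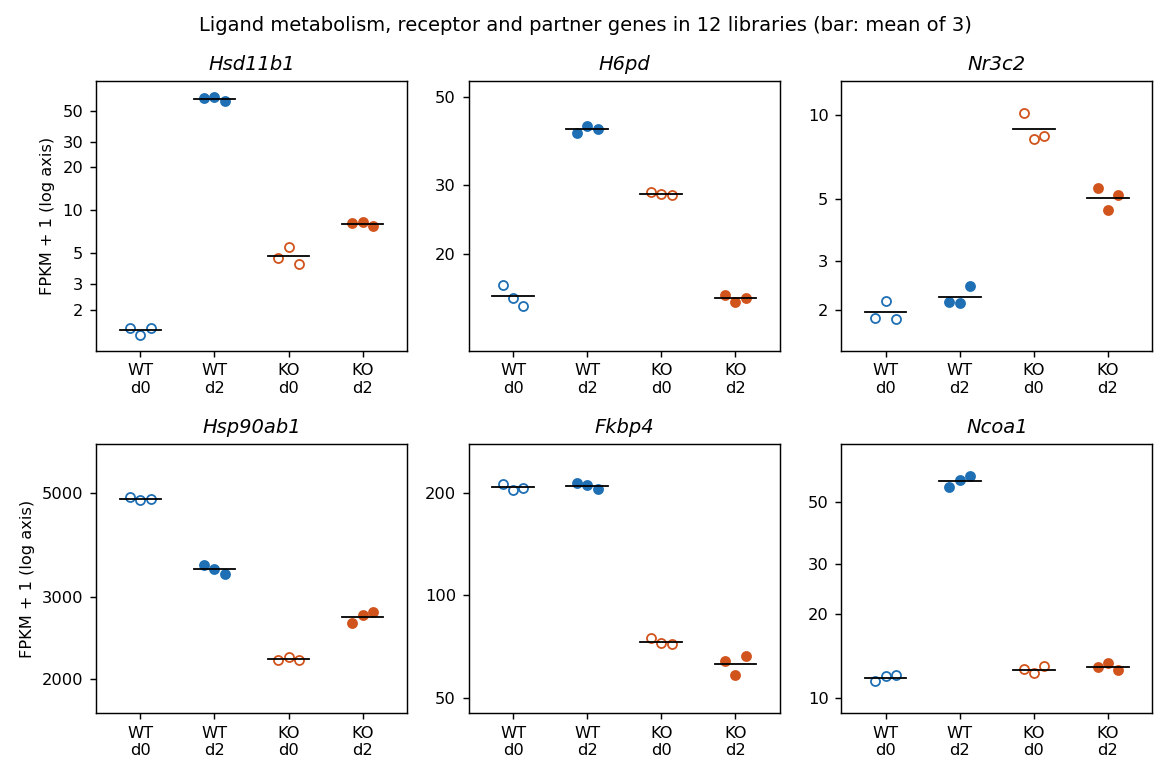
FPKM + 1 on a log axis for 6 genes of hormone metabolism, receptors and receptor partners in each of the 12 libraries, with WT in blue, KO in orange, open circles for day 0 (d0), filled circles for day 2 (d2) and a bar at the mean of 3. Hsd11b1, H6pd and Ncoa1 are highest in WT day 2, Nr3c2 is higher in KO at both days, and Hsp90ab1 and Fkbp4 are lower in KO at both days.

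A wider list of 31 other genes that glucocorticoids induce in many tissues had 24 tested members, of which 20 were higher and 4 lower at day 2 in WT, and 19 higher and 2 lower in KO. Of all genes 34.2% were higher and 46.5% lower in WT, and 33.9% and 38.8% in KO. The medians were 2.04 and 1.92, beside -0.11 and -0.03 for all genes. This list too was chosen with earlier results of these data known, so its counts are not independent evidence of its direction. These counts and medians include Lcn2, Pck1 and Tgm2. Lcn2 reached the minimum only through day 2, and Pck1 and Tgm2 only through WT day 2, so they could only be higher there. For several genes the test found no difference between the rises in WT and KO at the threshold. Rgs2, a regulator of G protein signalling, rose 7.57-fold in WT and 7.37-fold in KO (difference of changes -0.034, adjusted p = 0.315). Per1, a clock gene with a strong hormone response, rose 4.22-fold and 4.31-fold (difference 0.08, adjusted p = 0.155), and Nfkbia, the inhibitor of NF-kappa B, 3.81-fold and 3.84-fold (difference 0.014, adjusted p = 0.832). The SE of these differences were 0.03 for Rgs2, 0.05 for Per1 and 0.06 for Nfkbia, and a p above the threshold does not show equal changes. Glul, glutamine synthetase, went from 32.4 ± 0.927 to 1055 ± 14.3 FPKM in WT and from 23.2 ± 1.51 to 1113 ± 28.7 in KO (log2 4.98 and 5.53).

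Others of the list differed as the 10 genes did, in both directions. Cebpd, an early adipogenic transcription factor, rose 2.74-fold in WT and 17.7-fold in KO (difference of changes 2.63, adjusted p = 4.19e-11), and Ddit4, an inhibitor of mTOR signalling, 4.55-fold and 10.2-fold (difference 1.15, adjusted p = 1.08e-09). Foxo3, a transcription factor of stress responses, fell by 0.25 in WT and rose by 1.49 in KO (difference 1.74, adjusted p = 1.88e-10). In the other direction, Angptl4, an inhibitor of lipoprotein lipase, rose 22.4-fold in WT and 3.30-fold in KO (difference -2.72, adjusted p = 1.7e-12), and Lpin1, an enzyme of triglyceride synthesis, was at 10.1 ± 0.290 and 130.2 ± 1.42 in WT and at 3.74 ± 0.0244 and 11.5 ± 0.0362 in KO (difference -2.17, adjusted p = 1.02e-12). Lcn2, an acute phase protein gene, reached 172 ± 3.16 in WT and 71.5 ± 3.57 in KO from under 1 FPKM. Anxa1, a mediator of anti-inflammatory hormone action, fell in both, from 1746 ± 11.7 to 239 ± 9.08 in WT and from 602 ± 10.7 to 509.8 ± 8.33 in KO. For the difference of changes 9 were above 0, 9 below and 6 not called, with a median of -0.01, beside 40.8% and 33.0% of all genes above and below 0 and a median of 0.06. Those below include Pck1 and Tgm2, which reached the minimum only through WT day 2, so their sign was fixed by the filter.

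Genes that glucocorticoids repress were, where tested, all higher in KO at day 2. They too were listed with earlier results of these data known. The counts below therefore describe the list and are not independent evidence of its direction. Of 14 listed, 8 were tested, and 8 of 8 fell over the days in WT (median -3.23), while in KO 7 fell and Cxcl1 rose (median -1.11). Of all genes 46.5% fell in WT (median -0.11) and 38.8% in KO (median -0.03). Il11 reached the minimum only through day 0, and through KO day 0 in particular, so its fall in these counts was fixed by the filter. Ccl2, a monocyte chemokine, went from 93.6 ± 2.40 FPKM to 0.851 ± 0.493 in WT and from 79.1 ± 1.52 to 16.6 ± 0.603 in KO (difference of changes 3.53, SE 0.19, adjusted p = 8.64e-09). Ccl7, a related chemokine, went from 95.5 ± 4.49 to 2.08 ± 0.166 in WT and from 68.5 ± 1.73 to 46.8 ± 2.45 in KO (difference 4.43, SE 0.07, adjusted p = 2.66e-13). Ptgs2, the inducible prostaglandin synthase, went from 35.4 ± 2.43 to 1.60 ± 0.248 and from 28.4 ± 0.298 to 22.5 ± 0.500 (difference 3.49, adjusted p = 1.25e-11). At day 2 all 8 were higher in KO (median 2.64), beside 40.8% of all genes (median 0.0), after 3 higher, 2 lower and 3 not called at day 0, where 38.3% of all genes were higher and 44.2% lower. The difference of changes was above 0 in 7 and not called for Il11 (0.31, adjusted p = 0.164), with a median of 2.37, beside 40.8% of all genes above 0 and a median of 0.06. Of the 8 preadipocyte markers, 7 had a difference of changes above 0 and Col3a1 one below 0 (-0.83, adjusted p = 4.69e-09). The 7 include Cd34, which reached the minimum only through WT day 0, so its sign here was fixed by the filter. The part of cell state in the repressed genes was not tested. Il6, Mmp9, Nos2, Tnf, Il1b and Icam1 were under the minimum.

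**Figure D4:**
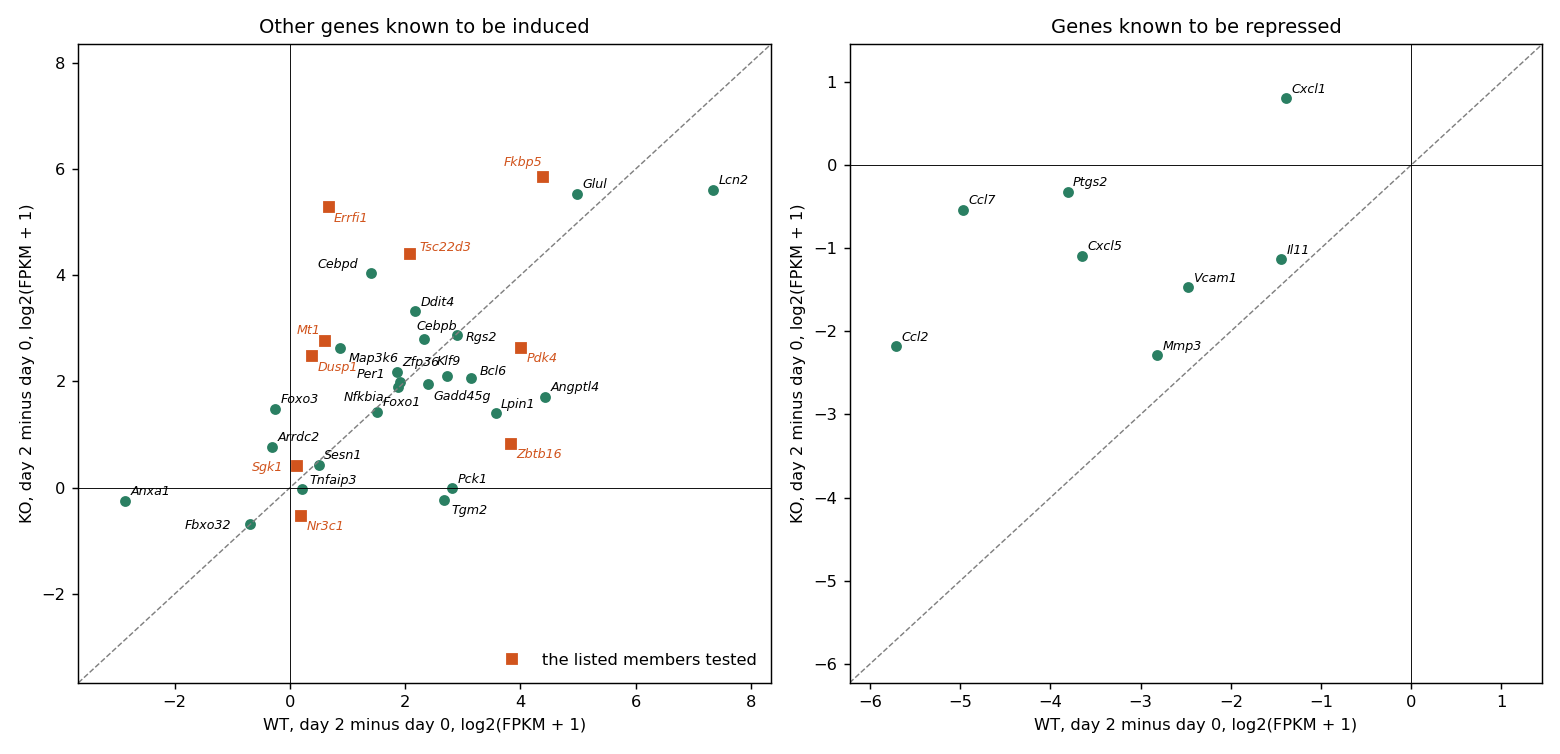
Change over 2 days in WT (x axis) against the change in KO (y axis), both in log2(FPKM + 1), for genes known to be induced (left, with the 9 tested main genes as orange squares) and known to be repressed (right); the dashed line marks equal change. Errfi1 lies farthest above the line among the main genes and Zbtb16 farthest below, and all 8 repressed genes lie above the line.

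Metal-response genes were followed because of Mt1. Of 6 listed 4 were tested, and in each genotype 3 were higher and 1 lower at day 2 (medians 0.38 in WT and 0.56 in KO), beside 34.2% and 46.5% of all genes in WT and 33.9% and 38.8% in KO. Slc39a14, a zinc importer, rose from 59.4 ± 1.53 to 88.0 ± 3.03 FPKM in WT and from 45.9 ± 0.499 to 154 ± 2.13 in KO (difference of changes 1.17, adjusted p = 1.24e-10), and Slc39a10, another zinc transporter, fell from 20.6 ± 0.154 to 7.59 ± 0.227 and from 13.9 ± 0.740 to 4.76 ± 0.392. Slc30a1, a zinc exporter and target of the metal sensor MTF-1, rose by 0.76 in WT and 0.67 in KO (difference -0.09, adjusted p = 0.362). KO against WT was lower in 3 of 4 at day 0, beside 44.2% of all genes, and split into 2 higher and 2 lower at day 2, beside 40.8% and 40.6%.

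Across the 12 libraries the genes fell into several patterns. By Pearson's r of log2(FPKM + 1) over 11143 named genes, those nearest to Fkbp5 were Rogdi and Tiparp (0.9966 each) and Rhob (0.996), and those nearest to Tsc22d3 were Xdh (0.9971), Camk2d (0.9969) and Ear1 (0.9962). Zbtb16 had Dolk (0.9995), Cib2 (0.9985) and the fatty acid receptor gene Cd36 (0.9983) as nearest, the last at 640.1 ± 10.2 FPKM in WT day 2 and 2.91 ± 0.257 in KO day 2. Nr3c1 had Fxyd1 (0.993), Sft2d2 (0.9885) and Srp68 (0.9877). The 12 points are 4 groups of 3 and each r is set by 4 group means, so many genes reach high values: 58 genes were above 0.99 for Zbtb16, 16 for Tsc22d3, 10 for Fkbp5 and 1 for Nr3c1. Mt2 was under the minimum and has no such neighbours here.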

How the data were processed

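RNA-seq of 12 libraries (4 groups of 3) was used; the 24 MeRIP samples (12 immunoprecipitated, 12 input) were not analysed here. The deposited table holds FPKM as the authors computed them. The submitters' processing notes name the build mm10, the aligners TopHat2 2.0.12, Bowtie2 2.2.3 and BWA 0.7.12, the counter HTSeq 0.6.1, the peak caller MACS2 2.1.0, and CASAVA and FastQC, with no statement of which step used which. Which annotation, strand setting and FPKM formula were used is not given in the sources, so overlapping or antisense genes and near-identical copies cannot be told apart. A symbol was found for 51633 of 52505 Ensembl IDs.

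For the 30916 genes above 0, FPKM values were whole multiples of 1 step per gene (tolerance 0.001 of a read), which gave read numbers and totals of 18073258 to 23114994. Implied gene lengths were whole (tolerance 0.05 bases) in 99.99% of 16215 genes above 0 in all libraries.

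The scale was log2(FPKM + 1), with 1 as the pseudocount. Genes under a mean of 1 FPKM over the libraries were left out, and 12961 remained. The limma package (3.58.1, R 4.3.3) fitted a mean per group with a trended variance, 8 residual degrees of freedom and no replicate block. The 5 comparisons were KO against WT at each day, day 2 against day 0 in each genotype, and the difference of these changes. Tests were 2-sided and adjusted by Benjamini-Hochberg over all genes, called under 0.05, with a second count at 2-fold. Mt2, under the minimum, was compared by exact permutation. The scripts were tested on simulated data. Coordinates and promoter windows (250 bases upstream) are of RefSeq GRCm38.p6.

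Named genes are the 10 genes, Zfp217, members of 6 lists chosen by role (receptor chaperones, coregulators, ligand metabolism, other induced, repressed and metal-response genes), marker genes and the 3 nearest patterns. Members and lists were chosen with earlier results of these data known. Alternatives were a pseudocount of 0.1, no filter, a minimum of 5 FPKM, quantile, TPM and median-of-ratios scaling, an untrended variance, a fit on the compared libraries alone, the replicate block, leaving out each library, and voom on the recovered reads.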

Additional observations from a re-analysis of the deposited data

Results flagged for a closer look

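For 9 of the 10 genes and for Zfp217 the change over the 2 days differed between the genotypes by the test of the difference itself (limma interaction, KO minus WT, log2 scale). KO rose more for Errfi1 (4.61), Tsc22d3 (2.30), Mt1 (2.15), Dusp1 (2.07), Fkbp5 (1.46) and Sgk1 (0.29). The change in KO was below that in WT for Zbtb16 (-3.0), Pdk4 (-1.38) and Nr3c1 (-0.71). Zfp217, which fell over the days under both labels, fell less in the libraries labelled KO (0.32). Of all 12961 genes tested, 40.8% were called above 0 and 33.0% below 0 in this comparison, so a call as such sets these genes apart little. Errfi1 ranked 9 from the top. Zbtb16 reached the expression minimum only through the WT day 2 libraries, so its sign here was fixed by that filter and is a description. Both changes of Sgk1 were small, and its WT change is the one that quantile normalization takes out of the calls.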

How the results depend on the processing

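Of 976 recomputed log2 values of the 9 tested genes, 971 kept their direction and their side of the threshold. The rise of Sgk1 in WT lost its call after quantile normalization (0.042, adjusted p = 0.17), a setting that moves the all-gene median of this comparison by 0.12. The uncalled difference of Zbtb16 at day 0, which rests on 1 read in each group, changed sign after quantile normalization (-0.011), without WT day 0 replicate 1 or replicate 3 (-0.0022 each) and without KO day 0 replicate 1 (-0.0061), within a range of -0.0061 to 0.0069 over all libraries left out in turn. Mt2 as a percentage of Mt1, KO minus WT at day 0, was -0.0112 and turned to 0.0114 without KO day 0 replicate 2 and 0.0109 without WT day 0 replicate 3 (range -0.0324 to 0.0114). Its WT change of -0.0123 turned to 0.00991 without WT day 0 replicate 3 (range -0.0334 to 0.00991). No count of called genes moved by over 1.5 times. The log2 size of the Zbtb16 rise was 3.83 in WT and 0.83 in KO, 7.0 and 3.08 with a pseudocount of 0.1, and 10.53 and 6.4 with voom on recovered reads, with ranges of 3.81 to 10.53 and 0.68 to 6.4 over all settings. With a replicate block, 8 members were called for KO against WT at day 0 and 9 in each other comparison, as without it, and the gene counts ran from 9386 to 10652. Same-numbered libraries deviated with r of -0.0545 to 0.0869 and 6 of 12 correlated best with their own number. Correlations this weak cannot tell whether the numbers pair the samples. The fit on only the libraries compared was not run for the difference of changes, which needs all groups. Depth limits Mt2 (0 to 14 reads) and Zbtb16 at day 0 (1 read a group).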
